A study of Mus musculus with 92 samples.

Results

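The 8 factors described here belong to the transcriptional machinery of muscle: the basic helix-loop-helix factors Myod1, Myog and Myf6, the satellite cell factor Pax7, the MADS-box factors Mef2a, Mef2c and Mef2d, and the homeodomain factor Six4. They were chosen by gene symbol, and 8 of 8 were present among the 13441 genes of the deposited table. The table held the RNA-seq profiles of quadriceps muscle from 92 DOz mice that had eaten standard chow throughout life and were about 18 to 20 weeks old. The labels give no other treatment, genotype or sex, so the animals form 1 group, and the design allows levels, spread between animals and covariation, but no comparison of conditions. Animals are called here by their order of deposition (animal 1 to animal 92). The labels do not state that each library came from a separate animal, and p-values measure the spread between these libraries.

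In developing and regenerating muscle, Pax7 marks the quiescent stem cells called satellite cells, Myod1 commits their progeny to the muscle lineage, Myog drives their fusion and differentiation, and Myf6 (MRF4) is the family member that stays high in mature fibres. The bHLH factors pair with E proteins and bind E-boxes. MEF2 factors act with them on muscle promoters under the control of class IIa histone deacetylases and calcium-dependent kinases, and Six4 and its relatives bind MEF3 sites with Eya co-activators. Myod1 is known to be richer in fast than in slow muscle and Myog richer in slow than in fast muscle, and Myog rises when a muscle loses its nerve.

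RefSeq promoter windows (GRCm38.p6, from 250 bases before to 50 after an annotated start) were matched for 6 of the 8 factors; Myod1 and Myf6 had no entry, and Six4 had 2 windows, of which the first is shown. The windows below are shown because Myog is the classical target of the other factors and because Mef2a, Mef2d and Six4 moved together between animals. Capitals mark matches, on either strand, to the E-box (CANNTG), the MEF2 site and the MEF3 site (TCAGGTTTC); no matches overlapped.
Myog, chr1:134289754-134290053, plus strand: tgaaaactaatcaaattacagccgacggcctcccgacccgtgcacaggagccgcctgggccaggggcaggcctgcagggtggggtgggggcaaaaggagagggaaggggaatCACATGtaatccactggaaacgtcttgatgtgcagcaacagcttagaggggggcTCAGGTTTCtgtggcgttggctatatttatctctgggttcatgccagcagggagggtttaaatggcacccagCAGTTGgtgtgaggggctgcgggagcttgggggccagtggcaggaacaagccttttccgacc
Mef2a, chr7:67372809-67373108, minus strand: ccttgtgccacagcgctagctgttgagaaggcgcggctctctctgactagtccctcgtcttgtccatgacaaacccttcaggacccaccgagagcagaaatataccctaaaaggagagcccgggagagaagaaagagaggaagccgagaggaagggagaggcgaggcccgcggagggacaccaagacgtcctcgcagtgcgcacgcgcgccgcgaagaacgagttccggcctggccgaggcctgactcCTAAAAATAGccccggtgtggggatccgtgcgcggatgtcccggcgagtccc
Mef2d, chr3:88142122-88142421, plus strand: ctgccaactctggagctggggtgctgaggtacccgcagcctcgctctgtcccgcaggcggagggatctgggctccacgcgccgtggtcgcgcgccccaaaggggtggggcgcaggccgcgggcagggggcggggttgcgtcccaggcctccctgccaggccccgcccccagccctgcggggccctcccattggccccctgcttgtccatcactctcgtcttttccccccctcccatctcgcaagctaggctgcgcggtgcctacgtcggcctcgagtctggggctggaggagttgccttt
Six4, chr12:73113196-73113495, minus strand: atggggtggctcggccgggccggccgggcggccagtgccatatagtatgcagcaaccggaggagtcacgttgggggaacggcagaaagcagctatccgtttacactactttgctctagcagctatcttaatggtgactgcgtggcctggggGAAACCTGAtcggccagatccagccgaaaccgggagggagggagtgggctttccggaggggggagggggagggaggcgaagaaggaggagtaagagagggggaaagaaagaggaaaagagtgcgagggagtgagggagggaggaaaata
The Myog window held 2 E-boxes, at positions -138 and -12 from the start, and 1 MEF3 match at -84. The first Six4 window held the same MEF3 letters on its other strand, at -99, and the second held 0 MEF3 matches. Over all 32851 promoter windows, 0.429% held a MEF3 match and 72.3% held an E-box. The Mef2a window held 1 MEF2 match, a motif found in 3.19% of windows, and the Mef2d window held none of the 3 motifs. A match is a stretch of letters and not a measured binding site. The Myog window held 0 matches to the 10 MEF2 letters used, which does not show that it lacks a MEF2 site.

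Mef2c was the most abundant of the 8 factors as deposited, and Pax7 the least. Levels are log2 values close to a per-million scale, given as mean ± SD over 92 animals. Mef2c was 9.32 ± 0.25, with a lowest value of 8.76, a median of 9.28 and a highest of 10.70. The highest belonged to animal 69, which lay 0.92 above the next animal. Mef2d (7.79 ± 0.19; lowest 7.28, median 7.80, highest 8.25) and Mef2a (7.29 ± 0.21; lowest 6.25, median 7.30, highest 7.68) were held within narrower ranges. Mef2d levels spanned 1.96-fold between the extreme animals, the narrowest range of the 8.

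Among the bHLH factors, Myf6 was the highest and Myog the lowest. Myf6 was 6.01 ± 0.29, from 5.15 through a median of 5.95 to 6.80. Myod1 was 3.87 ± 0.48, from 2.80 through 3.87 to 4.92. Myog was 1.74 ± 0.77, from 0.35 through 1.76 to 5.11. Its 2 highest values, 5.11 in animal 84 and 4.27 in animal 69, stood above all others, and its extremes differed 27.2-fold. Six4 was 5.0 ± 0.27 (lowest 4.23, median 5.04, highest 5.60). Pax7 was 1.22 ± 0.49, from -0.07 through 1.22 to 2.42, with its highest value in animal 84. In bulk tissue, fewer cells of a type and less RNA per cell cannot be told apart, which touches Pax7 most directly.

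**Figure D1:**
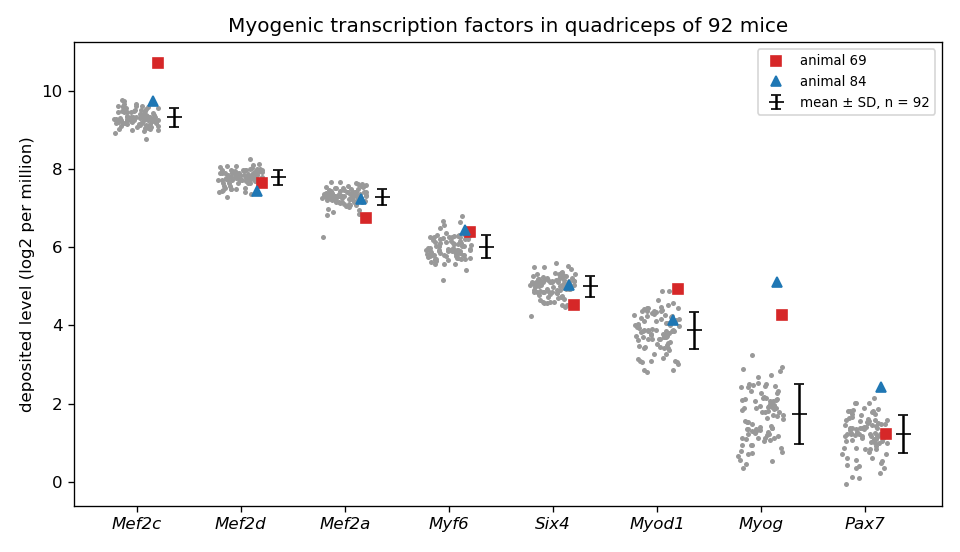
Deposited levels (log2 per-million, vertical axis) of the 8 factors in 92 animals, with each point 1 animal and bars the mean ± SD. Animals 69 and 84 are marked: they hold the 2 highest Myog values (4.27 and 5.11), and animal 69 holds the highest Mef2c value (10.70).

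Spread between animals depends on level, so each SD was set against the SD typical of genes of the same mean level. Myod1 exceeded that trend by 0.87 on the log2 scale of the SD, more than 91.8% of genes, and Myog by 0.81, more than 90.7%. Myf6 exceeded it by 0.46 (80.4th percentile), whereas Pax7 (-0.06) and Mef2d (-0.14) lay slightly below it. The MEF2 factors and Six4 had excesses between -0.14 and 0.25.

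Levels were compared between genes per kilobase of merged exons, on the log2 scale. Myf6 came first at 5.67, followed by Mef2c at 5.35, Mef2d at 5.21, Mef2a at 3.42, Myod1 at 2.97, Six4 at 1.56, Myog at 1.16 and Pax7 at -1.33. Of the 7 neighbouring pairs, 3 differed by more than 1 SD of the within-animal difference, each in 92 of 92 animals: Mef2d above Mef2a, Myod1 above Six4 and Myog above Pax7. Myf6 was above Mef2c in 78 of 92 animals and Mef2c above Mef2d in 60, differences within their spread. Dividing by the longest transcript instead placed Mef2c first and Myf6 second. Whether the deposited values already carry a length scaling is not stated in the sources used here.

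Mef2a, Mef2d and Six4 rose and fell together. Of the 28 pairs of factors, the 3 among these genes passed a Benjamini-Hochberg adjusted p of 0.05 in the genome-wide limma fit with either member as the predictor. The share of all genes called was 30.2% with Mef2a, 16% with Mef2d and 16.4% with Six4. Mef2a and Six4 had the closest relation (Pearson's r = 0.552, Spearman's rho = 0.538, permutation p = 1e-05 for each, the smallest that 100000 permutations can give; limma adjusted p = 2.67e-07). Without the 2 animals farthest from the Mef2a median r was 0.45. It was above 0 in 5 of 5 blocks of title numbers (0.204 to 0.762).

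Mef2a and Mef2d followed with r = 0.517 and rho = 0.498 (permutation p = 1e-05 for each, limma adjusted p = 2.56e-06), and r = 0.481 without the 2 farthest animals. Mef2d and Six4 were more loosely tied, with r = 0.335 and rho = 0.352 (permutation p = 0.00119 and 0.00072, limma adjusted p = 0.0114). Both relations were above 0 in 5 of 5 blocks. Mef2c had no called relation with them over the 92 animals: its r was 0.079 with Mef2a, -0.076 with Mef2d and -0.0938 with Six4 (limma adjusted p from 0.587 to 0.781). Animal 69 had the highest Mef2c value (10.70) and the second lowest Mef2a value (6.74), and without animals 69 and 84 the r of Mef2a with Mef2c was 0.325 (limma adjusted p = 0.00895).

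Each of these 3 factors also moved with a property of the whole library. For each animal, the deviation of every gene from its mean was regressed on exon length and GC content; the length slope runs from -0.14 to 0.10 log2 units per SD of log2 length. Mef2a levels correlated with the length slope at r = 0.693 and rho = 0.564, Mef2d at r = 0.56 and rho = 0.509, and Six4 at r = 0.493 and rho = 0.411 (permutation p = 1e-05 for each but Six4's rho, with 7e-05). The GC slope went with Mef2a at r = -0.633 and rho = -0.536 and with Six4 at r = -0.471 and rho = -0.437 (permutation p from 1e-05 to 4e-05), and with Mef2d at r = -0.0397 and rho = 0.00583 (permutation p = 0.707 and 0.956). The merged exons of Mef2a, Mef2d and Six4 measure 14681, 5985 and 10855 bases, against a median of 4448 bases over genes. Mef2c, with 15715 bases, had r = 0.0591 and rho = 0.161 with the length slope. Pax7, with 5860 bases, had r = 0.157 and rho = 0.154. Whether the length of a factor plays a part was not tested. With the length and GC slopes as covariates, Mef2a and Mef2d passed the test still (limma adjusted p = 0.0139), and neither pair with Six4 did.

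**Figure D2:**
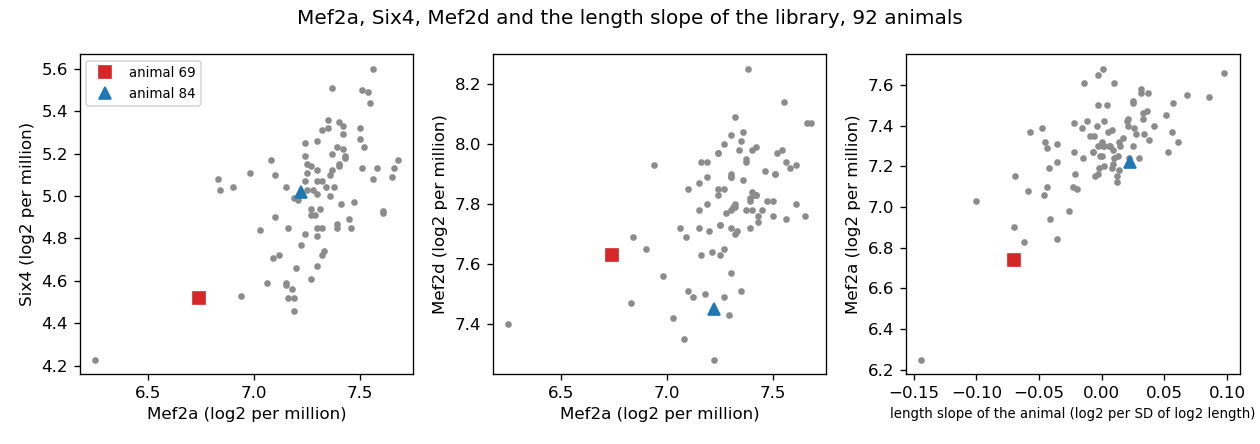
Six4 against Mef2a, Mef2d against Mef2a, and Mef2a against the length slope of each library, in log2 per-million; each point is 1 of 92 animals, with animals 69 and 84 marked. All 3 clouds rise to the right (r = 0.552, 0.517 and 0.693).

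Myod1 and Myog were weakly related. Their r was 0.354 and rho 0.333 (permutation p = 0.00069 and 0.00142), with r above 0 in 5 of 5 blocks (0.274 to 0.69). The limma adjusted p was 0.0186 with Myog as the predictor and 0.0646 with Myod1, so the call depends on which factor predicts; 5.06% of all genes were called with Myog and 0.484% with Myod1. Without animals 69 and 84, r was 0.308, and Myod1 was not among the 6 genes then called with Myog by limma. Myf6 had r = 0.263 with Myog and 0.0579 with Myod1, and Pax7 had r = 0.272 with Myog; none of these passed.

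Few slow fibre genes passed with any factor. The slow list holds the slow myosin Myh7, its light chains, slow troponins, the slow calcium pump and calsequestrin 2, 11 genes in all. Myh7 itself ranged from 0.51 through 4.65 to 8.41. With Myod1, 0 of 11 slow genes passed by limma (0 at an unadjusted p under 0.05), against the same 0.484% of all genes. Their median r was -0.0516, beside 0.00285 over all genes.

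With Myog, 1 of 11 slow genes rose, against 2.65% of all genes. That gene was Casq2, the calsequestrin of slow and cardiac muscle, at 1.54 through 3.72 to 6.71. Its r with Myog was 0.321 and its rho 0.136 (permutation p = 0.00249 and 0.196, limma adjusted p = 0.0365). Animal 84 was highest in both genes, and without animals 69 and 84 r was 0.143 and the limma adjusted p 0.731. The 11 slow genes had r above 0 with Myog (median 0.119) and also with Pax7 (median 0.156); with Pax7 0 of 11 passed by limma, 2 at an unadjusted p under 0.05, against 0.00744% of all genes called. With Myf6, Mef2a, Mef2c, Mef2d and Six4, 0 of 11 passed by limma, and from 0 to 2 did at an unadjusted p under 0.05, against 6.87%, 30.2%, 3.15%, 16% and 16.4% of all genes called. Tnni1, slow troponin I, rose with Myog on the log2(value + 1) scale (limma adjusted p = 0.0458) and fell with Mef2a once blocks of title numbers entered the fit (adjusted p = 0.0313), and Myh7b fell with Mef2a without animals 69 and 84 (adjusted p = 0.0481). With the slow fibre score as a covariate, which these genes themselves make, Tnni1 rose and Myl2 fell with Myog, Atp2a2 rose with Mef2a, Tnni1 with Mef2c and Tpm3 with Mef2d (adjusted p from 0.0339 to 0.044).

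The 2A and 2X myosins Myh2 and Myh1 passed with 0 of the 8 factors by limma, and 5 of the 16 relations had an unadjusted p under 0.05. The nearest was Myod1 with Myh2, at r = -0.297 and rho = -0.306 (permutation p = 0.00411 and 0.00324, limma adjusted p = 0.117), below 0 in 5 of 5 blocks. With the slow fibre score as a covariate Myh2 rose with Mef2a (limma adjusted p = 0.0139) and with Mef2d (adjusted p = 0.0143), and with 3 principal components Myh1 rose with Six4 (adjusted p = 0.0338). Myh2 levels ran from 10.12 through 11.21 to 12.37.

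Some fast fibre genes moved with Mef2a, Mef2d and Six4. Myh4, the myosin of the fastest 2B fibres and the most abundant of them at 14.96 through 15.91 to 16.41, rose with Mef2a (r = 0.448, rho = 0.5, permutation p = 4e-05 and 1e-05, limma adjusted p = 0.000227). It rose likewise with Mef2d (r = 0.468, rho = 0.451, permutation p = 1e-05 and 3e-05, limma adjusted p = 0.000339). The 2 animals with the highest Myog were low in it: Myh4 was lowest of 92 in animal 84 and ranked 88th from the top in animal 69.

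Most other fast genes called with these factors had r below 0. With Mef2a, 6 of 12 fast genes fell and 1 rose, against 13.4% and 16.8% of all genes. Those that fell included Atp2a1, the fast calcium pump (r = -0.351, rho = -0.283, limma adjusted p = 0.00736), and Tnnc2, fast troponin C (r = -0.337, rho = -0.296, limma adjusted p = 0.00629). With Six4, 4 of 12 fell and 0 rose, against 6.42% and 9.99% of all genes. Tnnc2 was first among them (r = -0.466, rho = -0.442, permutation p = 1e-05 and 2e-05, limma adjusted p = 0.000216), at levels from 11.74 through 12.39 to 12.86, then Mylpf (r = -0.396) and Myl1 (r = -0.384), fast myosin light chains. With Mef2d, 1 of 12 rose and 0 fell, against 10.1% and 5.95% of all genes.

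Animals 29 and 69 had the lowest Mef2a values (6.25 and 6.74), and without them 0 of the 12 fast genes fell with Mef2a by limma, 1 rose and 3 had an unadjusted p under 0.05. The limma adjusted p was then 0.09 for Atp2a1 and 0.155 for Tnnc2. After re-centring of the samples 2 of 12 fell with Mef2a, with 3 principal components 3, and with the scores of 7 other cell types 9; with Six4 these counts were 3, 7 and 9. With the cell-type scores 2 of 12 fell with Mef2d.

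Myh4, the 1 fast gene that rose, measures 6016 bases of merged exons. The 7 fast genes that fell with Mef2a or Six4 measure from 800 (Tnnc2) to 3477 bases (Atp2a1). With the length and GC slopes as covariates, 0 of the 6 Mef2a relations that fell passed by limma (5 of the 12 fast genes had an unadjusted p under 0.05), and the slopes of Atp2a1 and Tnnc2 turned to 0.06 and 0.05 log2 units per SD of Mef2a, from -0.06 and -0.07. Under the same covariates Mef2d kept its relation with Myh4 (limma adjusted p = 0.0352), whereas Mef2a lost it (adjusted p = 0.107) and gained Myoz1, a Z-disc protein of fast fibres (0.11 ± 0.03 SE, adjusted p = 0.0141), and Six4 kept none of its 4 (3 fast genes at an unadjusted p under 0.05). With 3 principal components as covariates Myh4 passed with neither Mef2a (adjusted p = 0.889) nor Mef2d (adjusted p = 0.496).

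**Figure D3:**
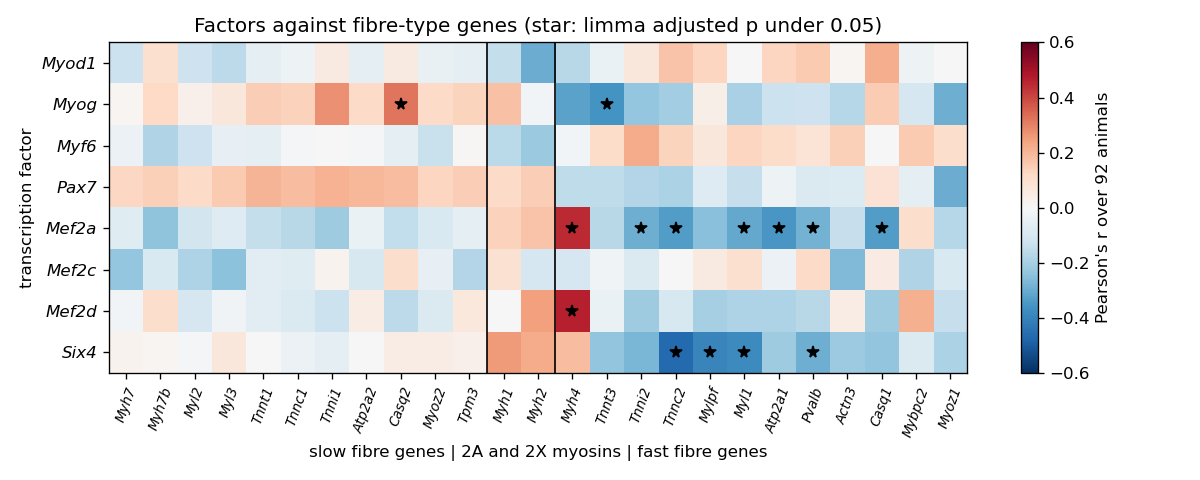
Pearson's r over 92 animals of each factor (rows) with 25 fibre-type genes (columns), red above 0 and blue below, with a star where the limma adjusted p was under 0.05. Stars gather in the Mef2a and Six4 rows at fast fibre genes; the only slow gene with a star is Casq2 with Myog (r = 0.321).

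No fast gene passed with Myod1, Myf6, Pax7 or Mef2c by limma, with 1 fast gene at an unadjusted p under 0.05 for each of them. The percentages of all genes called were 6.87 for Myf6 and 3.15 for Mef2c. With Myog, 1 of 12 fast genes fell, against 2.41% of all genes: Tnnt3, fast troponin T (r = -0.36, rho = -0.207, limma adjusted p = 0.0327). Its limma adjusted p was 0.439 without animals 69 and 84. With the length and GC slopes as covariates 3 of 12 fell with Myog, Myh4 (adjusted p = 0.0465), Tnnt3 (0.011) and Myoz1 (0.0112), and 2 of 12 fell with 3 principal components, on the log2(value + 1) scale or with the filter on a mean of at least 1. With the scores of 7 other cell types 0 of 25 fibre genes passed with Myog by limma, with Tnnt3 at an adjusted p of 0.0515 and Casq2 at 0.119 (1 slow and 5 fast genes had an unadjusted p under 0.05). Actn3, the actinin of fast fibres, fell with Mef2c with 3 principal components (limma adjusted p = 0.0311) and without the 2 animals farthest from the Mef2c median (adjusted p = 0.043).

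Whether Myod1 and Myog differed in their slopes was tested directly, with both in 1 limma model. It called 211 of 13439 genes (1.57%), 0.915% rising and 0.655% falling, and 0 of 25 fibre genes. At an unadjusted p under 0.05, 1 slow, 2 2A and 2X, and 6 fast genes passed. Slopes on Myod1 minus slopes on Myog were below 0 for 11 of 11 slow genes (median -0.347 log2 units per SD, beside 0.00252 over all genes) and above 0 for 12 of 12 fast genes (median 0.0709). For the fast myosins Myh1 and Myh2 they were -0.20 and -0.21, below 0 like those of the slow genes. Genes of 1 list can move together, so their signs do not count as independent. The lowest adjusted p among them was 0.0696, for Tnnc2.

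The contrast tests the difference of the slopes and not either relation alone. Among its largest values, Pkdcc, a secreted kinase, had r = 0.33 with Myod1 and -0.298 with Myog (difference 0.30 ± 0.05 SE, limma adjusted p = 0.000121). Cacng7 had r = 0.158 and -0.433 (0.40 ± 0.07 SE, adjusted p = 0.000344). Foxo3, a factor of the atrophy programme, had r = -0.295 with Myod1 and 0.283 with Myog (-0.22 ± 0.04 SE, adjusted p = 0.000677), and Lnpep, the insulin-regulated aminopeptidase, r = -0.194 and 0.378 (-0.22 ± 0.04 SE, adjusted p = 0.000677). Cers1, a ceramide synthase, had r = 0.279 with Myod1 and -0.285 with Myog (difference 0.27 ± 0.05 SE, adjusted p = 0.0009); it shares exons with Gdf1, so its values are uncertain. Among the lists, Ncam1 (-0.32, adjusted p = 0.0221) and Tcf3 (0.15, adjusted p = 0.0418), an E protein that pairs with both factors, were called and are named after their values were seen. Without animals 69 and 84 the contrast called 54 genes.

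Myog moved with genes of denervated and regenerating fibres. Of 16 such genes 12 were in the table, and 6 rose with Myog, 0 fell and 6 did not pass, against 2.65% of all genes rising. Their median r was 0.318, beside -0.00553 over all genes. Myl4, the embryonic myosin light chain, ran from -0.47 through 1.24 to 5.95 (r = 0.544, rho = 0.244, permutation p = 1e-05 and 0.0191, limma adjusted p = 5.9e-05). Ncam1, the adhesion molecule of uninnervated fibres, ran from 2.12 through 2.87 to 5.71 (r = 0.529, rho = 0.282, limma adjusted p = 7.37e-05). Chrnb1, a subunit of the acetylcholine receptor, ran from 3.97 through 4.78 to 5.76 (r = 0.51, rho = 0.406, permutation p = 1e-05 and 0.00015, limma adjusted p = 0.00014).

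Animals 84 and 69 were at or near the top in most of these genes, but not in Musk (ranks 68 and 71 of 92) or Mybph (48 and 44). Animal 84 was highest of 92 in Myl4, Ncam1, Chrna1, Chrnd, Runx1, Cdkn1a and the embryonic myosin Myh3, and animal 69 was second in Myl4 and Ncam1. Summed macrophage markers ran from 44.9 through 102 to 587 on the per-million scale; animal 84 was highest and animal 69 ranked 3 of 92. Summed endothelial markers (154 through 299 to 390 on the per-million scale) and Schwann markers (19.2 through 42.6 to 109 on the per-million scale) were lowest in animal 69 and next lowest in animal 84. With the scores of 7 other cell types as covariates 3 of the 12 denervation genes rose with Myog in place of 6 (3 also with 3 principal components), against 1.53% of all genes called in either direction.

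Without animals 69 and 84, Myog was associated with 6 genes in place of 680, and 0 of the 12 denervation genes passed by limma (5 at an unadjusted p under 0.05). The r of Chrnb1 was then 0.405, of Myl4 0.271 and of Ncam1 0.25. The 6 genes, named after their values were seen, were Gm49668, Obsl1, Sik1, Slc25a25 and Klhl40, which rose, and Mecom, which fell. Klhl40 is a muscle protein that stabilises thin filament proteins, and Obsl1 is a cytoskeletal relative of obscurin. All 6 had been among the 680. The genes most like Myog over 92 animals were Tubb6, a tubulin of regenerating fibres (r = 0.565), Arl6ip5 (r = 0.55) and Myl4, and those most unlike it Wnk2 (r = -0.513), Foxk2 (r = -0.501) and Ube2r2 (r = -0.49). Without those 2 animals these relations ran from 0.271 to 0.337 and from -0.335 to -0.222.

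**Figure D4:**
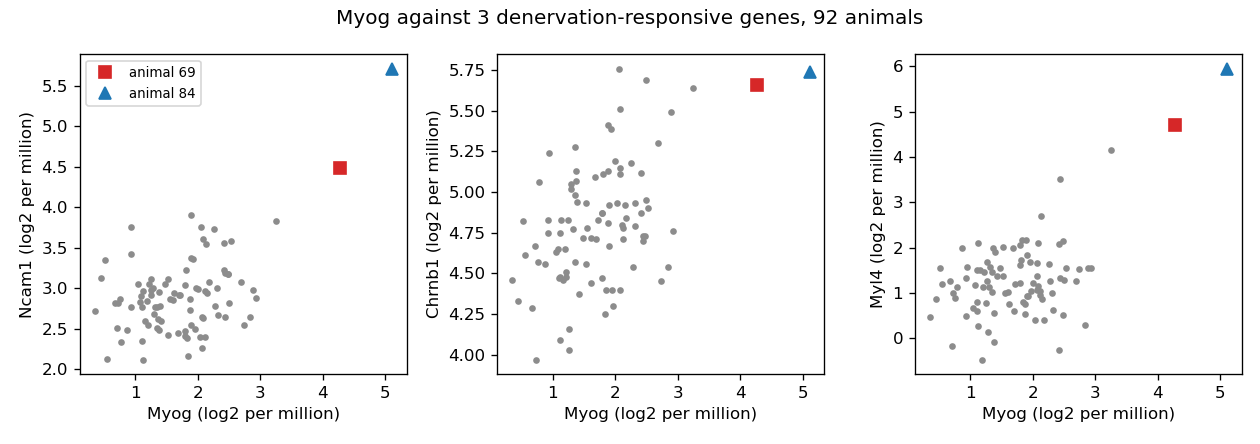
Ncam1, Chrnb1 and Myl4 against Myog, in log2 per-million, each point 1 of 92 animals. Animals 84 and 69 lie alone at the right, and without them r was 0.25, 0.405 and 0.271.

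Of the satellite cell list, 2 of 9 genes rose with Myog, against 2.65% of all genes: Megf10 (r = 0.441, limma adjusted p = 0.00241) and Fgfr4 (r = 0.327, adjusted p = 0.0365). Animal 84 was highest of 92 in both. Their r was 0.289 and 0.144 without animals 69 and 84, and 0 of 9 passed by limma (3 at an unadjusted p under 0.05). With the cell-type scores, 3 principal components or the slow fibre score, 1 of 9 rose with Myog. With the filter on a mean of at least 1, 1 gene of the list rose. The filter left Megf10 (mean 0.04), Myf5 (0.19), Pax3 (0.58) and Chrdl2 (-0.49) untested, so the call of Megf10 was not re-examined there. Pax7 was called with 0 of the 9 by limma, 5 at an unadjusted p under 0.05, with a median r of 0.241 beside 0.00363 over all genes. Its nearest was Fgfr4, a receptor of satellite cells (r = 0.418, rho = 0.38, permutation p = 4e-05 and 0.00027, limma adjusted p = 0.073). With the scores of 7 other cell types as covariates Fgfr4 passed (adjusted p = 0.0328), and on the log2(value + 1) scale 1 of the 9 rose with Pax7. Its only call among 13440 genes was Pnma8b, a gene with a mean of -0.12 named after its value was seen (r = 0.507, adjusted p = 0.00283).

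Myod1 was associated with 65 genes, 31 rising (0.231%) and 34 falling (0.253%), and none of them was in the lists. Ccdc134, a protein of the secretory pathway, was most like it (r = 0.543, rho = 0.534, permutation p = 1e-05 for each, limma adjusted p = 0.000245), with r above 0 in 5 of 5 blocks (0.432 to 0.63). Tmem208 (r = 0.494) and Thap11 (r = 0.453) followed. Atosa (r = -0.484), the lipid transfer protein Stard7 (r = -0.477) and the co-regulator Cited2 (r = -0.465) were most unlike it. Genes that rose with Myod1 had a median merged exon length of 2190 bases and those that fell 7410 bases. With the length and GC slopes as covariates 6 genes passed: Ccdc134, Vma21 and Igfn1 rose, and Cited2, Atosa and Pfkfb3 fell.

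Myf6 was associated with 397 genes rising and 526 falling, more than Myog or Myod1 in the fit without covariates; with the cell-type scores or 3 principal components Myog had more. It rose with 3 of 12 denervation genes, against 2.95% of all genes: Musk, the receptor kinase of the neuromuscular junction (r = 0.374, limma adjusted p = 0.00751), Gadd45a (r = 0.342) and Runx1 (r = 0.332). It fell with 3 of 12 bHLH partners and inhibitors, against 3.91% of all genes. Bhlhe41 (r = -0.474, rho = -0.504, permutation p = 1e-05 for each, limma adjusted p = 0.000239) and Bhlhe40 (r = -0.425, adjusted p = 0.00156) are E-box repressors of the clock and Tcf3 (r = -0.346) an E protein. The r of Bhlhe41 and of Bhlhe40 was below 0 in 5 of 5 blocks. Of 14 clock genes, Nr1d1 (r = -0.47, adjusted p = 0.000282) and Dbp (r = -0.386) fell and Per1 rose (r = 0.296, adjusted p = 0.0497). No clock gene rose with Myf6 with blocks, cell-type scores, principal components, the slow fibre score or length and GC slopes in the fit, or without animals 69 and 84 or the 2 animals farthest from the Myf6 median (animals 31 and 73). Without the latter, 1 of 12 denervation genes rose with Myf6. The time of day of collection is not given in the sources used here.

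Dach1, a co-repressor that acts with Six4 and its relatives, fell with Myf6 as well (r = -0.545, rho = -0.55, permutation p = 1e-05 for each, limma adjusted p = 1.2e-05). The genes most like Myf6 were the ubiquitin ligase Siah1a (r = 0.579), Tmem140 (r = 0.579) and the homeodomain repressor Tgif1 (r = 0.573). Those most unlike it were Mrtfa, the actin-regulated co-activator of SRF (r = -0.596), Sema6c (r = -0.577) and Gm11266 (r = -0.574). Each of these 6 had the same sign in 5 of 5 blocks.

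Markers of some other cell types moved with Myf6. Against 3.91% of all genes falling, 5 of 8 endothelial markers fell, led by the VEGF receptor Kdr (r = -0.57, rho = -0.551, permutation p = 1e-05 for each, limma adjusted p = 3.25e-06), as did 3 of 6 Schwann markers. The fibroblast marker Pi16 (r = -0.337, limma adjusted p = 0.0198) and the macrophage marker Csf1r (r = -0.364, adjusted p = 0.00979) fell too. Of 8 fibroblast markers 4 fell after re-centring and 0 with length and GC slopes (5 at an unadjusted p under 0.05 in each). None of the 4 smooth muscle and 7 adipocyte markers passed by limma (1 of each list at an unadjusted p under 0.05). The Schwann count was 1 of 6 with blocks of title numbers in the fit, without animals 69 and 84 or without animals 31 and 73, and 0 with length and GC slopes (4 at an unadjusted p under 0.05). The endothelial count was 3 of 8 with length and GC slopes. With the scores of 7 other cell types as covariates Myf6 was associated with 102 genes in place of 923 (0.759% of all genes). With those scores 2 of 12 bHLH partners and inhibitors, 1 of 9 Six4 partners, 1 of 14 clock genes, 1 of 8 endothelial and 1 of 8 macrophage markers fell (the markers themselves make the scores), and 0 of 12 denervation genes rose by limma (3 at an unadjusted p under 0.05). Myf6 was associated with 0 genes by limma once 3 principal components of the table were covariates (870 at an unadjusted p under 0.05).

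Mef2a was associated with 4053 genes, Mef2d with 2154 and Six4 with 2206. Mef2a and Six4 shared 1822, which is 45% of the first and 82.6% of the second, each in the same direction. Mef2a and Mef2d shared 1639 (40.4% and 76.1%). Over all genes 30.2% were called with Mef2a, 16.4% with Six4 and 16% with Mef2d. Mef2a itself correlated with Six4 (r = 0.552) and Mef2d (r = 0.517), so the overlaps are no separate result. Hipk3, a nuclear kinase, was most like Mef2a (r = 0.844, rho = 0.766, permutation p = 1e-05 for each, limma adjusted p = 2.92e-22), followed by the RNA-binding proteins Larp4 (r = 0.798) and Ythdf3 (r = 0.791). The ribosomal protein Rpl13 (r = -0.662) and the small mitochondrial proteins Uqcc2 (r = -0.641) and Tomm5 (r = -0.632) were most unlike it. The r of Hipk3 was above 0 in 5 of 5 blocks (0.624 to 0.926).

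For Mef2d the chromatin remodeller Arid1b (r = 0.667), the muscle sodium channel Scn4a (r = 0.666) and Prrc2b (r = 0.666) were most like it, and Cox6b1 (r = -0.556), Rpl23 (r = -0.547) and Pcdhgc4 (r = -0.539) most unlike it. For Six4 these were Alg10b (r = 0.659), Msl2 (r = 0.652) and Clasp2 (r = 0.647) against Tomm6 (r = -0.547), Ppia (r = -0.534) and Rpl27a (r = -0.522). Genes that rose with Mef2a had a median merged exon length of 6973 bases and those that fell 2593; for Mef2d the lengths were 7142 and 2644, and for Six4 7093 and 2447. Ribosomal protein genes and Ppia have near-identical pseudogene copies, and Pcdhgc4 shares exons with its gene cluster, so their values are uncertain.

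Some partners of these factors moved with them. Of 18 MEF2 cofactors and kinases, 9 rose and 2 fell with Mef2a, against 16.8% and 13.4% of all genes. With Mef2d 8 of 18 rose, against 10.1%, and with Six4 4 of 18, against 9.99%. The co-activators Ncoa2 (r = 0.679, limma adjusted p = 9.26e-12) and Ep300 (r = 0.654, adjusted p = 6.74e-11) led with Mef2a. Of 9 Six4 partners, Eya1, the Six4 co-activator with a phosphatase domain, rose with Six4 (r = 0.463, rho = 0.459, permutation p = 2e-05 and 3e-05, adjusted p = 0.000162), with Mef2a (r = 0.625) and with Mef2d (r = 0.493). The counts for Six4 partners, against the same shares of all genes, were 5 of 9 rising with Six4, 4 rising and 1 falling with Mef2a, and 4 rising with Mef2d. Without the 2 animals farthest from the Six4 median (animals 29 and 46) 1 of 9 rose with Six4, with blocks of title numbers in the fit 2, and with the cell-type scores or 3 principal components 3. With 3 principal components 2 of 9 Six4 partners rose with Mef2a and 1 with Mef2d, and with length and GC slopes 1 and 2. With 3 principal components as covariates 4 MEF2 cofactors and kinases rose and 1 fell with Mef2a, 2 rose with Six4, and 0 of 18 passed with Mef2d by limma (7 at an unadjusted p under 0.05).

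With the length and GC slopes as covariates Mef2a was associated with 352 genes, Mef2d with 677 and Six4 with 6. Of the 18 MEF2 cofactors and kinases 1 then rose with Mef2a and 3 with Mef2d. With Six4, 0 of 18 MEF2 cofactors and 0 of 9 Six4 partners passed by limma, 3 and 2 at an unadjusted p under 0.05. The length and GC slopes were computed from the same values, and their part in the relations was not otherwise tested.

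**Figure D5:**
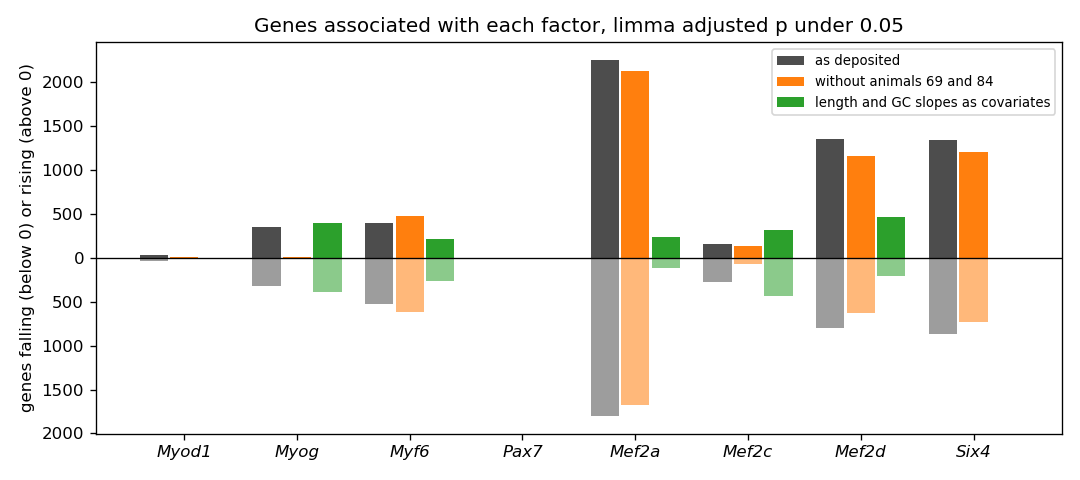
Number of genes rising (above 0) and falling (below 0) with each factor at a limma adjusted p under 0.05, as deposited, without animals 69 and 84, and with length and GC slopes as covariates. Myog drops from 680 genes to 6 without the 2 animals, and Six4 from 2206 to 6 with the covariates.

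Mef2c, the factor with the highest deposited level, was second to Myf6 per kilobase of merged exons and first by longest transcript. It was associated with 424 genes, of which 155 rose. The microtubule protein Map1b (r = 0.544, rho = 0.35, permutation p = 1e-05 and 0.00063, limma adjusted p = 0.000148), Ankrd17 (r = 0.511) and Mthfd2 (r = 0.487), a mitochondrial folate enzyme, were most like it. The glypican Gpc3 (r = -0.536), the mast cell protease Cpa3 (r = -0.504) and the matrix protein Efemp1 (r = -0.5) were most unlike it. Of 12 denervation genes 4 rose with it, against 1.15% of all genes, among them Runx1 (r = 0.389), Ncam1 (r = 0.386) and Myl4 (r = 0.38). The r of these 3 was 0.223, 0.152 and 0.0929 without animals 69 and 84, when 1 of 12 rose, and with the scores of 7 other cell types 0 of 12 passed by limma (5 at an unadjusted p under 0.05). Of 18 MEF2 cofactors and kinases 1 rose, the kinase Camk2d (r = 0.386, adjusted p = 0.0122).

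Markers of some cells around the fibres fell with Mef2c, against 2% of all genes falling. These were 3 of 4 for smooth muscle, led by Tagln (r = -0.455), 4 of 6 for Schwann cells, led by Prx (r = -0.415), and 3 of 7 for adipocytes, led by Adipoq (r = -0.393). Of 8 endothelial markers Eng (r = -0.42) and Tek (r = -0.364) fell, and of 8 fibroblast markers Pi16 (r = -0.404) and Dcn (r = -0.352). With blocks of title numbers in the fit, 0 of 8 macrophage and 0 of 5 blood markers passed by limma (1 and 0 at an unadjusted p under 0.05). Summed smooth muscle markers ran from 33.4 through 123 to 399 on the per-million scale, with a median of 254 and a highest of 1280 on that scale for adipocyte markers. Animal 69, highest in Mef2c, was lowest in the smooth muscle and Schwann sums. Without animals 69 and 84, 208 genes were associated with Mef2c, and 0 smooth muscle, Schwann or adipocyte markers passed by limma (1, 3 and 3 at an unadjusted p under 0.05). With 3 principal components 1 smooth muscle and 1 Schwann marker fell with Mef2c and 0 adipocyte markers did by limma (3 at an unadjusted p under 0.05), while 3 of 18 MEF2 cofactors and kinases rose. Without animals 69 and 84 the r of Tagln was -0.171, of Prx -0.19 and of Camk2d 0.422. That of Eng was -0.204, of Tek -0.0409, of Pi16 -0.29 and of Dcn -0.322. With the scores of 7 other cell types 0 of 18 MEF2 cofactors and kinases passed with Mef2c by limma (1 at an unadjusted p under 0.05).

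The title numbers fall into 5 blocks of 11 to 33 animals; the labels do not say what a block is. No factor passed the test between them (limma adjusted p from 0.637 to 0.916), and 2 of 13441 genes did (0.0149%). Deposited values summed to between 898071 and 1140761 per animal once returned to the linear scale. Total counts are not given, so depth per library is unknown, and the number of animals limits the precision. Fast fibre markers were present in every animal, with Myh4 at 14.96 or above. Exons of Mef2a overlap those of Lysmd4 on the other strand over 302 bases, and the r of the 2 genes was 0.0131.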

How the data were processed

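Per the labels' protocols, libraries were made from 500 ng of RNA with the KAPA mRNA HyperPrep kit, and the submitters' processing notes name bcl2fastq, MultiQC, kallisto 0.50.1, edgeR and the mouse build mm10, without role or order. The authors deposited log2 values, whose exact scaling is not stated in the sources used here; returned to the linear scale they sum to between 898071 and 1140761 per animal, so they are written as log2 on a per-million scale. Of 13456 lines, 15 repeats were removed, which left 13441 genes. Low genes carry the more uncertain values, and depth cannot be given.

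Each gene was fitted on the standardised level of each factor with limma 3.58.1 (R 4.3.3, mean-variance trend), and p-values were adjusted by Benjamini-Hochberg over the other 13440 genes. A slope is in log2 units per SD of the factor. Correlations were tested, two-sided, with 100000 permutations (Python 3.11.15). Spread was set against a lowess trend. Exon lengths and GC content (GENCODE M21, GRCm38, the mm10 assembly) covered 98.6% of genes. The fit was tested on simulated data.

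The factors and gene lists were chosen with earlier results of these data known. Named genes were, among those past 0.05 with a mean of at least 1, the 3 most like and 3 most unlike each factor, and up to 4 on each side of the contrast; from each list, up to 3 called genes by absolute r with a factor, with no minimum mean. Alternatives were covariates (blocks of title numbers, 3 principal components, scores of 7 cell types, the slow fibre score), leaving out the 2 farthest animals, log2(value + 1), a filter on a mean of at least 1, and re-centring. Leaving out animals 69 and 84 and adding length and GC slopes were chosen after seeing the data.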

Additional observations from a re-analysis of the deposited data

How the results depend on the processing

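The share of all genes associated with each factor moved by over 1.5 times under these settings. With 3 principal components as covariates it was 0.179% for Myod1, 2.39% for Myog, 0% for Myf6 (870 genes at an unadjusted limma p under 0.05), 0.0372% for Pax7, 13% for Mef2a, 6.78% for Mef2c, 0.915% for Mef2d and 8.55% for Six4, and 3.13% for the contrast of Myod1 and Myog. With the scores of 7 other cell types it was 0.201% for Myod1, 1.53% for Myog, 0.759% for Myf6, 0.0595% for Pax7 and 0.804% for Mef2c. Without the 2 animals farthest from each median it was 0.0893% for Myod1, 0.0446% for Myog, 4.02% for Myf6, 1.05% for Mef2c, 9.2% for Six4 and 0.372% for the contrast. Without animals 69 and 84 it was 0.134% for Myod1, 0.0446% for Myog, 0.0149% for Pax7 (the 2 genes Edn3 and Pnma8b, named after their values were seen), 1.55% for Mef2c and 0.402% for the contrast. With length and GC slopes as covariates it was 0.0446% for Myod1, 3.55% for Myf6, 2.62% for Mef2a, 5.56% for Mef2c, 5.04% for Mef2d and 0.0446% for Six4. Under the same covariates 1 of the 3 pairs of factors was called, and the slopes of Atp2a1 and Tnnc2 on Mef2a reversed to 0.06 and 0.05. For Pax7 it was 0.104% on the log2(value + 1) scale and 0% with the filter on a mean of at least 1 (897 genes at an unadjusted limma p under 0.05). That filter left Pnma8b (mean -0.12), the 1 gene called with Pax7 in the main fit, untested. Genes that differ between title-number blocks were 0% with principal components, cell type scores or the slow fibre score (776, 1072 and 1240 genes at an unadjusted limma p under 0.05) and 0.00744% after re-centring. The longest transcript moved 2 factors in the order of levels. The cause of each change was not tested.

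Of the 55 relations between a factor and another factor, a gene most like or unlike it or a fibre gene named for it by the rule, 55 kept their call with the block covariate, on the log2(value + 1) scale and with the filter. Lost calls numbered 1 with re-centring, 1 with the slow fibre score (which added 1), 5 with the cell type scores, 16 with principal components, 13 without the 2 farthest animals, 11 without animals 69 and 84 and 21 with length and GC slopes, which also reversed 2. The block covariate did move counts of other list genes: Six4 partners rising with Six4 from 5 to 2, Schwann markers falling with Myf6 from 3 to 1, and fast genes falling with Mef2a from 6 to 5 and with Six4 from 4 to 3. Low levels limit Pax7 and Myog most. No paired analysis was possible because the labels give 1 group.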
